A study of Homo sapiens with 2 samples.

Results

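The mitochondrial ribosome translates the few proteins that mitochondrial DNA still encodes, and all of its own proteins are encoded in the nucleus, made in the cytosol and imported. The genes described here are those of these proteins that carry the names MRPL (large subunit) and MRPS (small subunit). The rule that picks them reads the symbol alone, the letters MRPL or MRPS followed by a number and at most 1 letter. Of the 12014 genes listed in the deposited files, 78 carried such a name, 49 of them MRPL and 29 MRPS. The cells were ACHN, a renal carcinoma line of human origin, made to carry a lentiviral shRNA that targets KIAA1429 (shKIAA1429 below) or a non-targeting one (shNC), and kept as stable lines under puromycin. Whether a line was a pool or 1 clone is not stated in the sources used here. KIAA1429, now named VIRMA, is a subunit of the complex that writes the RNA mark m6A. Each group was 1 library, titled as total RNA but purified on oligo(dT) by its protocol, so the differences below are without replicates and carry no test. The sample labels call the treated cells a knockout, the methods describe a knockdown, and which of the shRNAs against KIAA1429 was sequenced is not named.

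The ribosome of mitochondria descends from a bacterial one. Of the 77 members that belong to it, 48 have a bacterial counterpart (MRPL16 is that of bacterial L16), and the other 29 were gained in mitochondria, where proteins have taken over space that ribosomal RNA fills in bacteria. The small subunit reads the messenger RNA, and the large subunit joins the amino acids and passes the chain through a tunnel to the inner membrane. Inherited faults of several of these genes, MRPS22 and MRPL44 among them, cause a combined deficiency of the respiratory chain. The names do not always give the place of the protein. MRPS18A and MRPS30 sit in the large subunit, and MRPS36 is a subunit of the 2-oxoglutarate dehydrogenase complex and not of the ribosome. By place, 51 members belong to the large subunit, 26 to the small subunit and 1 to neither.

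The values are FPKM, fragments scaled to gene length and to library size, so levels of different genes can be set side by side, while the sequencing depth is unknown. FPKM is a share of the RNA of a library. A lower share can come from fewer cells that express a gene or from less of its RNA in each. It can also come from more RNA of other genes in the library. These cannot be told apart. The log2 change used throughout is a log2 ratio, shKIAA1429 over shNC, taken after adding a pseudocount of 1 to each FPKM value, which understates the change of low genes. KIAA1429 itself was at 3.92 FPKM in shNC and 3.22 FPKM in shKIAA1429, which is 82.1% of the control and a log2 change of -0.22. The target was thus only modestly lower in the library that carries the shRNA against it. The renal and epithelial markers PAX8, PAX2, KRT8 and KRT18 were at 31.4 FPKM or more in both libraries. PAX8 was at 64.7 FPKM in shNC and 104 FPKM in shKIAA1429 (log2 change 0.68), VIM at 368 and 228 FPKM (-0.69) and MET at 63.0 and 90.5 FPKM (0.52), so some marker genes of these cells differed by more than most members, and the part of this in the results below was not tested. The leukocyte gene PTPRC and the endothelial gene PECAM1 are not among the listed genes. A filter that asked for 1 FPKM or more on average kept 10702 gene symbols, called all genes below, and every member. The median log2 change of all genes was 0.058.

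The promoters of the members were looked up because promoters of genes for mitochondrial proteins are known for binding sites of a small set of factors, among them YY1, the ETS factor GABPA and NRF1. In the RefSeq promoter windows on GRCh38.p14, 250 bases before to 50 bases after a start, 70 of the 78 members were matched and the first window of each was searched on both strands. The letters CCGGAAG, the core that ETS factors bind, were in 29 of the 70 windows (41.4%), against 19.95% of the windows of 9759 matched genes of the files and 10.7% of all 27305 symbols of the table. The letters AAGATGGC, the core of the YY1 site, were in 20 windows (28.6%), against 5.57% and 3.03%. The ETS letters end in AAG and the YY1 letters begin with it, so a match of each can share these bases. The core of the NRF1 site, GCATGC, was in 9 windows (12.9%, against 9.13% of the genes of the files), and its full palindrome, which contains this core, was in 1, that of MRPL17. The E-box CACGTG, which MYC and its relatives bind, was in 7 of 70 windows, against 10.5% of those of the files' genes. The SP1 core GGGCGG was in 61.4% of the members' windows and 71.4% of those of the files' genes, whose windows were richer in G and C (median 65.7% against 60.3%). TATAAA was in 3. A match is a run of letters and not a proven site.

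**Figure D1:**
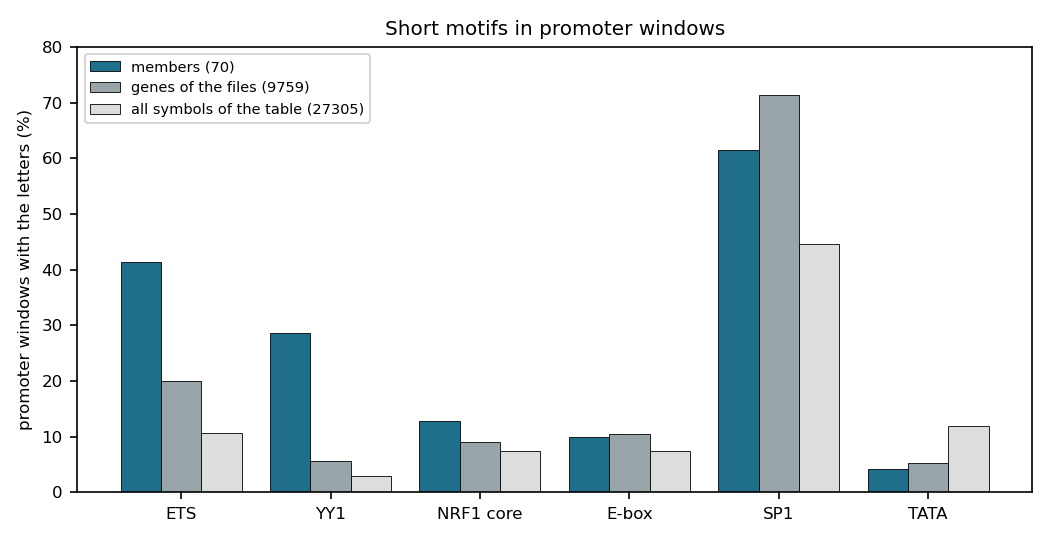
Share of promoter windows (percent, vertical axis) that hold each short motif on either strand, for 70 members, 9759 matched genes of the files and 27305 symbols of the RefSeq table. The ETS and YY1 bars of the members stand at 41.4% and 28.6%, above both other bars, while the SP1 bar of the members is below that of the genes of the files.

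Part of these matches lay near the start. Of the 29 members with the ETS letters, 16 had them within the 60 bases before it (22.9% of the 70 members, against 8.71% of the genes of the files). Of the 20 members with the YY1 letters, 15 had them on the gene's own strand within the 50 bases after it (21.4%, against 3.32%). The YY1 letters contain ATG, so in this place they can also be the start codon and the bases around it. Whether they are was not checked, and such matches cannot be told apart here from YY1 sites. MRPS10, MRPS18A and MRPL20 had both in these places. The windows below run from 70 bases before to 30 bases after the start, 5′ to 3′ on the strand of the gene, with ETS and YY1 letters in capitals. The first 3 are shown for this arrangement, MRPL45 and MRPL3 because each holds 1 of these motifs alone in the bases shown, and MRPS26 and MRPL16 because they had the lowest log2 changes of all members.
MRPS10, chr6:42217832-42217931, minus strand: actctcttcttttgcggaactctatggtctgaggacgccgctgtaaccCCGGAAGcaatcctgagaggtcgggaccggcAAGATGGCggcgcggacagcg
MRPS18A, chr6:43687762-43687861, minus strand: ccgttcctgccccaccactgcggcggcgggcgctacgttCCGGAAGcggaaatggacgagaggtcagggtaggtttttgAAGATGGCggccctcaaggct
MRPL20, chr1:1407264-1407363, minus strand: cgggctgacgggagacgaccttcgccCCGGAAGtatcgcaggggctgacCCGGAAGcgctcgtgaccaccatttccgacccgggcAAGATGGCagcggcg
MRPL45, chr17:38297098-38297197, plus strand: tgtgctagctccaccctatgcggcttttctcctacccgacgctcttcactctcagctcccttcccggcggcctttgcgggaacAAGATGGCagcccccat
MRPL3, chr3:131502942-131503041, minus strand: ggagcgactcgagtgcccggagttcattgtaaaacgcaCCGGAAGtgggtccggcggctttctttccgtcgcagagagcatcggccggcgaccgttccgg
MRPS26, chr20:3045982-3046081, plus strand: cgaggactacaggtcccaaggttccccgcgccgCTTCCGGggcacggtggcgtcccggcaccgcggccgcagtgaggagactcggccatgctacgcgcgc
MRPL16, chr11:59810749-59810848, minus strand: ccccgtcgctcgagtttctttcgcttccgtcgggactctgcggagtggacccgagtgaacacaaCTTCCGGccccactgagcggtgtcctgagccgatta
In MRPS10 the ETS letters begin 22 bases before the start and the YY1 letters at base 10 after it. In MRPS18A they begin 31 bases before the start and at base 10. MRPL20 has ETS letters at 44 and 21 bases before the start and YY1 letters at base 16. MRPL16 and MRPS26 carry the ETS letters on the opposite strand, where they read CTTCCGG in the lines above. In MRPL16 they begin 6 bases before the start and run across it.

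The 3 members with both motifs in these places differed little between the libraries. MRPS10 was at 27.4 FPKM in shNC and 27.9 FPKM in shKIAA1429, a log2 change of 0.029. MRPL20 was at 12.7 and 12.1 FPKM (-0.069), and MRPS18A, given with its paralogs below, had a log2 change of 0.15. MRPL3, with the ETS letters alone, was at 18.3 and 22.3 FPKM (0.27), and MRPL45, with the YY1 letters alone, had a log2 change of -0.28.

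The members were expressed at moderate to high levels. Their median was 13.4 FPKM in shNC and 13.1 FPKM in shKIAA1429, and the median of their mean FPKM (13.6) lay above that of 76.8% of all genes that passed the filter. With shNC 53 members were at 10 FPKM or more and 8 at 50 FPKM or more, and with shKIAA1429 these counts were 51 and 5. Together the members summed to 1595 FPKM in shNC and 1546 FPKM in shKIAA1429. This was 0.563% of all listed FPKM in shNC and 0.620% in shKIAA1429. Without the genes of mitochondrial DNA, whose share was lower in shKIAA1429, it was 0.975% and 0.947%, so the direction of the members' share depends on whether those genes are counted. The proteins are needed in 1 copy per ribosome, apart from the stalk protein MRPL12, but their mRNA levels differed by 40.4-fold between the highest and the lowest member with shNC and by 56.9-fold with shKIAA1429.

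MRPL51, a large subunit protein gained in mitochondria, was the most abundant member, at 103 FPKM in shNC and 101 FPKM in shKIAA1429. MRPL45, which lies at the tunnel exit and helps to hold the ribosome to the inner membrane, was at 84.8 and 69.8 FPKM. MRPL33 was at 79.6 and 67.9 FPKM. MRPS35, the highest of the small subunit, was at 65.3 and 75.7 FPKM, and MRPL12 was at 55.8 and 53.2 FPKM. Thus MRPL51 was highest in both libraries, while MRPL45, MRPL33 and MRPS35 stood in another order in each. At the low end, MRPL46 of the central protuberance was at 2.54 FPKM in shNC and 1.78 FPKM in shKIAA1429. MRPL48, its neighbour in the protuberance, was at 3.10 and 2.66 FPKM. MRPS11, of the platform of the small subunit, was at 3.32 and 2.76 FPKM, and MRPS22 was at 3.04 and 3.36 FPKM. MRPL42, at 3.38 and 4.22 FPKM, completed the lowest 5. With MRPS18C, at 3.82 and 4.28 FPKM, they were the 6 members under 5 FPKM in both libraries. Across the 78 members the log2 of (FPKM + 1) of both libraries had a Pearson r of 0.97, a description across genes of 2 libraries that share cell line, protocol and gene lengths.

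**Figure D2:**
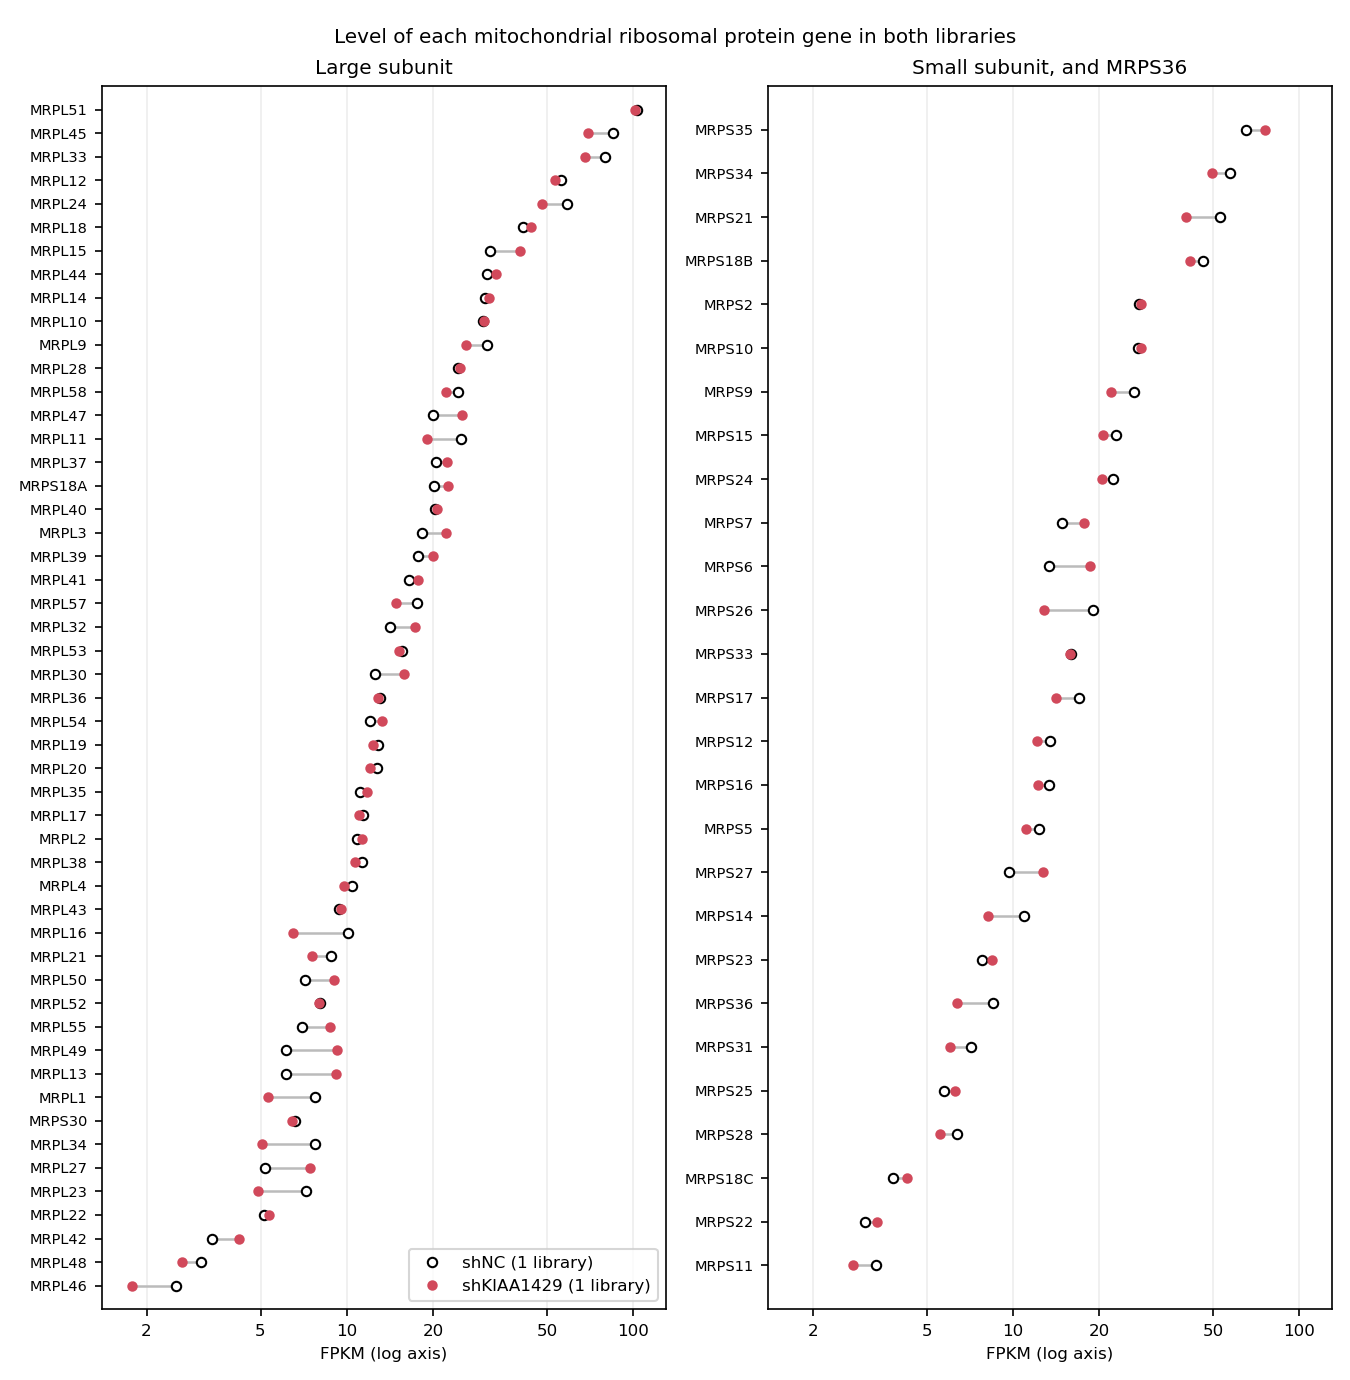
FPKM of every member (log axis) in the shNC library (open circles) and the shKIAA1429 library (filled circles), ordered by mean level, with the large subunit on the left and the small subunit and MRPS36 on the right. Values run from 1.78 to 103 FPKM, and for most members both circles lie close together compared with the spread between members.

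Between the libraries the members differed little. The median log2 change over the 78 members was -0.019 with quartiles of -0.20 and 0.12, against a median of 0.058 with quartiles of -0.15 and 0.27 over all genes. The share past a log2 change of 0.5 was below the background mainly on the upper side. On the lower side it rests on 3 genes and was nearer to the share of all genes. Higher by more than 0.5 were 2 members (2.56%, against 9.9% of all genes), and lower by more than 0.5 were 3 members (3.85%, against 6.12%). The log2 change was within 0.5 for 73 members (93.6%, against 84.0%). No member passed the limit of 1.5 that the study's methods give, which 0.383% of all genes passed upward and 0.252% downward. The SD of the log2 change across genes was 0.25 for the members and 0.40 for all genes. It was 0.43 for the 2875 genes whose mean FPKM lay between the quartiles of the members, 8.03 and 23.1 FPKM, so the narrow spread of the members was not that of all genes at their level. These shares describe 1 pair of libraries.

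The members lay a little lower than other genes. Of the 78 members, 51 (65.4%) were below the median of all genes, and 42 were below 0 (53.8%, against 42.7% of all genes). The distance of the members' median from that of all genes was -0.077, and it was -0.079 after scaling the FPKM of either library to add up to 1000000, which put the members at 0.16 and all genes at 0.24. The sign of the members' median therefore follows the scaling and the distance does not. Short and GC-rich transcripts had lower changes in this pair of libraries. Over all genes Spearman's rho with the log2 change was 0.19 for the length of the longest coding transcript and -0.30 for its GC content. The members' transcripts were short, with a median of 1516 bases against 3368 for all genes, and had a GC content of 48.9% against 48.5%. With this trend removed the members' median was -0.0042 on a scale where the genes of each bin are centred on 0.

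**Figure D3:**
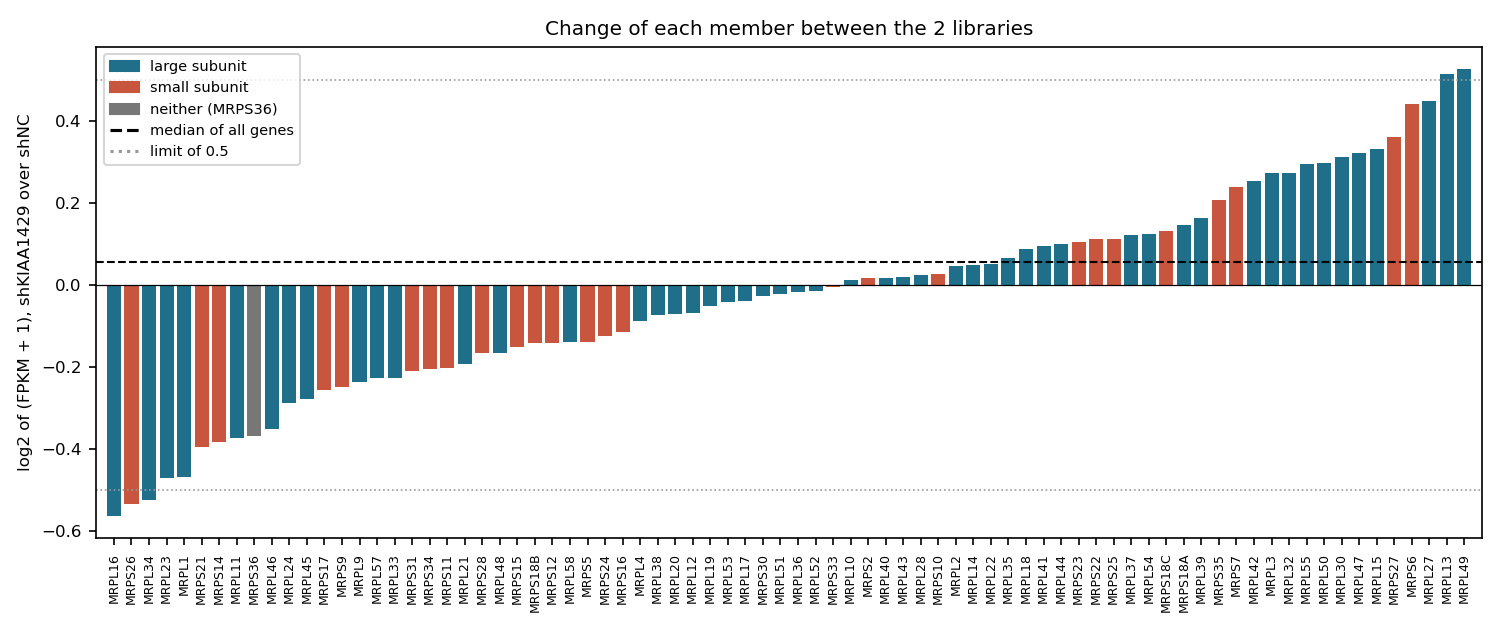
Log2 of (FPKM + 1) with shKIAA1429 over shNC (vertical axis) for each of the 78 members, ordered from lowest to highest and coloured by subunit, with the median of all genes dashed and limits of 0.5 dotted. The bars run from -0.56 for MRPL16 to 0.53 for MRPL49, and 5 of them pass a dotted line.

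The 3 members lower by more than 0.5 were MRPL16, MRPS26 and MRPL34. MRPL16, the counterpart of a bacterial protein that touches the tRNAs on the large subunit, lies on the minus strand of chromosome 11 (59573608 to 59578345 in GRCh37). It was at 10.1 FPKM in shNC and 6.49 FPKM in shKIAA1429, which is 64.5% of the control and a log2 change of -0.56. MRPS26, a small subunit protein gained in mitochondria (chromosome 20, 3026591 to 3028900), was at 19.1 FPKM in shNC and 12.8 FPKM in shKIAA1429, a log2 change of -0.53. MRPL34, a small basic protein of the large subunit (chromosome 19, 17403418 to 17417652), was at 7.72 and 5.07 FPKM, a log2 change of -0.52. With the trend of GC content and length removed, MRPL16 stayed past the limit at -0.502, while MRPS26 was at -0.37 and MRPL34 at -0.45.

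Higher by more than 0.5 were MRPL49 and MRPL13, both of the large subunit. MRPL49 (chromosome 11, 64889655 to 64894843) was at 6.12 FPKM in shNC and 9.26 FPKM in shKIAA1429, which is 151% of the control and a log2 change of 0.53. MRPL13, the counterpart of a bacterial protein that joins early in assembly (chromosome 8, 121393000 to 121457642), was at 6.13 and 9.197 FPKM, a log2 change of 0.52. After subtraction of the all-gene median both were under 0.5, at 0.47 and 0.46. With the trend removed MRPL49 was at 0.55 and MRPL13 at 0.498.

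The other members with low changes included MRPL23, MRPL1, MRPS21 and MRPS14. All are counterparts of bacterial proteins, as are 48 of the 78 members. MRPL11, MRPL46 and MRPS36, also low, are given elsewhere in the text. MRPL23, at the tunnel exit, was at 7.18 FPKM in shNC and 4.91 FPKM in shKIAA1429 (log2 change -0.47). MRPL1, the protein of the mobile stalk where spent tRNA leaves, was at 7.74 and 5.33 FPKM (-0.47). MRPS21 was at 53.1 and 40.1 FPKM (-0.39), the largest change among members at 50 FPKM or more in shNC. MRPS14, of the head of the small subunit, was at 11.0 and 8.19 FPKM (-0.38). With the trend removed MRPL1 was at -0.59 and MRPS14 at -0.52, both past 0.5. Reads of MRPS21 may have been shared with near-copies, since 8 pseudogenes in GENCODE 29 are named after it, and 34 of the 78 members have at least 1 such pseudogene.

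Among the members with high changes were MRPL27, whose bacterial counterpart reaches toward the site of peptide bond formation, at 5.198 FPKM in shNC and 7.47 FPKM in shKIAA1429 (log2 change 0.45), and MRPS27, a protein of RNA-binding pentatricopeptide repeats, at 9.67 and 12.7 FPKM (0.36). MRPL15 was at 31.7 and 40.2 FPKM (0.33), and MRPL47, the counterpart of bacterial L29 at the tunnel exit, was at 19.9 and 25.2 FPKM (0.32). MRPL50 was at 7.17 and 9.05 FPKM (0.30), and MRPL55 was at 6.96 and 8.77 FPKM (0.30). Without the trend of GC content and length, MRPL47 was at 0.072 and MRPL50 at 0.052, close to 0, and MRPL30, described below for its overlap, was at 0.17. MRPL27 (0.44), MRPL15 (0.34), MRPS27 (0.33) and MRPL55 (0.36) kept most or all of their change. Across the 78 members the log2 change had a Spearman rho of -0.026 with the mean level.

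By subunit, the median log2 change was 0.013 over the 51 members of the large subunit and -0.13 over the 26 members of the small subunit. The sums were 1061 FPKM in shNC and 1041 FPKM in shKIAA1429 for the large subunit, and 526 and 498 FPKM for the small one. Scaled to a sum of 1000000, the medians were 0.19 and 0.045, so that of the small subunit crossed 0, while all genes were at 0.24. Below the median of all genes were 32 of 51 and 18 of 26. The low median of the small subunit came with its counterparts of bacterial proteins. Of these 17 genes, 14 were below the median of all genes and their median was -0.14, while the 9 small subunit genes gained in mitochondria had a median of 0.11, with 4 below. In the large subunit the 31 bacterial counterparts had a median of 0.013 and the 20 others 0.0028. With the trend of GC content and length removed, the medians were 0.043 for the large subunit and -0.069 for the small one. The ranges of the subunits overlapped almost fully, from -0.56 to 0.53 and from -0.53 to 0.44.

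Parts of the large subunit were followed by lists. The stalk, which draws in the translation factors, and its base were represented by MRPL10, MRPL11 and MRPL12. MRPL10 was at 30.0 FPKM in shNC and 30.2 FPKM in shKIAA1429 (log2 change 0.013), whereas MRPL11 at its base was at 24.985 and 19.1 FPKM (-0.37). MRPL12, which is also known to bind the mitochondrial RNA polymerase, had a log2 change of -0.067. All 3 were below the median of all genes, but with the trend removed, on its scale centred on 0, MRPL10 was at 0.011 and MRPL12 at 0.081, and MRPL11 alone was below, at -0.36. The 9 members of the central protuberance had a median of -0.013 and ranged from -0.35 for MRPL46 to 0.45 for MRPL27. The 6 members of the tunnel exit had a median of -0.16 and ranged from -0.47 for MRPL23 to 0.32 for MRPL47. In these small parts 0 members passed 0.5, against 9.9% of all genes higher and 6.12% lower. Together their members ran from -0.47 to 0.45, while the stalk and its base alone ran from -0.37 to 0.013.

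The paralogs MRPS18A, MRPS18B and MRPS18C descend from 1 bacterial protein and occupy different places, MRPS18A in the large subunit and the others in the small one. MRPS18B was the most abundant, at 46.0 FPKM in shNC and 41.6 FPKM in shKIAA1429 (log2 change -0.14). MRPS18A was at 20.2 and 22.5 FPKM (0.15), and MRPS18C, the one most like the bacterial protein, was at 3.82 and 4.28 FPKM (0.13). With the trend removed MRPS18A was at 0.23, MRPS18B at -0.012 and MRPS18C at -0.12, so the direction of MRPS18C turned. The order of the levels was the same in both libraries, and their levels lay further apart than either library from the other.

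MRPS36, which matches the name but belongs to 2-oxoglutarate dehydrogenase, was at 8.497 FPKM in shNC and 6.36 FPKM in shKIAA1429, a log2 change of -0.37. With the trend removed it was at -0.62, past 0.5 and the lowest of the members named here. The enzyme subunits of that complex lay higher. OGDH was at 15.5 and 17.5 FPKM (0.16), DLST at 15.4 and 15.2 FPKM (-0.017), and DLD at 17.1 and 21.2 FPKM (0.29).

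Of the 78 members, 8 (10.3%) share bases of 1 strand with a further gene of the files, as 7.78% of all 12014 do, and how reads were divided there can set their values. MRPS6 overlaps SLC5A3, a transporter of myo-inositol. MRPS6 was at 13.4 FPKM in shNC and 18.6 FPKM in shKIAA1429 (0.44), SLC5A3 was at 3.25 and 7.10 FPKM (0.93), and their sum had a log2 change of 0.60. MRPS6 was at 0.503 with the trend removed. MRPL33 overlaps BABAM2, which was at 31.5 and 21.6 FPKM (-0.52), beside -0.23 for MRPL33. MRPS16 had a log2 change of -0.11 and its partner DNAJC9, a chaperone of histones, 0.94, with 0.45 for their sum. MRPL30, at 12.6 and 15.8 FPKM (0.31), overlaps AC092587.1, which was at 1.21 FPKM in shNC but is listed at 0 in shKIAA1429, and their sum had a log2 change of 0.19. For MRPL38 (-0.073) the sum with AC087289.3 had a log2 change of -0.24. For MRPS17 (-0.26), MRPS5 (-0.14) and MRPL53 (-0.041) the sums with NIPSNAP2, ZNF514 and CCDC142 had changes of -0.30, -0.15 and -0.085. Leaving out all 8 gave a median of -0.0081 for the other 70 members.

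Many members have a close neighbour that starts in the other direction. For 25 of the 78 members (32.1%, against 15.9% of all listed genes), another listed gene on the opposite strand starts within 1000 bases. These form 24 pairs, in 13 of which the starts lie within 100 bases. MRPL46 and MRPS11, 1 protein of each subunit, are such a pair, with starts 34 bases apart on chromosome 15 of GRCh37 at 89010650 and 89010684. Both were among the 5 members with the lowest mean level over both libraries, and their log2 changes were -0.35 and -0.20. Other neighbours are also genes of mitochondria. MRPL43 lies beside TWNK, the helicase of mitochondrial DNA, with log2 changes of 0.020 and -0.039. MRPS12 lies beside SARS2, the mitochondrial seryl-tRNA synthetase, with -0.14 and -0.12. MRPL36 lies beside NDUFS6 of respiratory complex I, with -0.017 and -0.028, and MRPL47 beside NDUFB5 of the same complex, with 0.32 and 0.065. MRPL13 lies beside MTBP, which was at 0.937 FPKM in shNC and 1.93 FPKM in shKIAA1429 (0.60, with 0.52 for MRPL13). MRPL49 lies beside FAU, a precursor of a cytosolic ribosomal protein, and there the directions differed, 0.53 for MRPL49 and -0.17 for FAU. In 18 of the 24 pairs (75%) both genes were on the same side of 0, against 57.9% of the 971 such pairs among all listed genes. In 17 (70.8%) both were on the same side of the median of all genes, against 53.6%. With 24 pairs these shares are a description.

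The 5 ribosomal proteins with other names lay in the range of the members. PTCD3 was at 8.43 FPKM in shNC and 10.3 FPKM in shKIAA1429 (0.26), and DAP3, a GTP-binding protein first known from cell death, at 21.0 and 22.8 FPKM (0.11). CHCHD1 was at 14.8 and 11.6 FPKM (-0.33), and AURKAIP1 at 34.0 and 29.8 FPKM (-0.18). With GADD45GIP1 (-0.026) their median was -0.026. Past 0.5 were 0 of 5, against 9.9% of all genes higher and 6.12% lower, and 5 genes are too few to compare with these shares.

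Among the factors that build and run the ribosome, the share lower by more than 0.5 was 14.3% for assembly and 12.5% for translation, from few genes and against 6.12% of all genes. Of 28 assembly factors, 4 were lower and 1 was higher by more than 0.5, with a median of -0.013. The lowest were MRM1, a methyltransferase of the large ribosomal RNA, at 6.78 FPKM in shNC and 3.38 FPKM in shKIAA1429 (-0.83), and MTG2, a GTPase of large subunit assembly, at 3.55 and 1.97 FPKM (-0.62). TFB1M, which methylates the small ribosomal RNA, was at 3.35 and 1.92 FPKM (-0.58), and the GTPase NOA1 was at 16.5 and 10.9 FPKM (-0.55). GTPBP10, another such GTPase, was at 1.56 and 3.40 FPKM (0.78), and it overlaps CLDN12 on the same strand. METTL17 followed at 0.37. Of 16 listed translation factors, 2 were lower by more than 0.5 and 0 higher, with a median of 0.036. These 2 were OXA1L, which inserts the new proteins into the inner membrane, at 29.8 and 19.5 FPKM (-0.59), and SLIRP, an RNA-binding protein, at 9.58 and 6.30 FPKM (-0.54). The highest were the release factors MTRF1L (0.37) and MTRF1 (0.34). LRPPRC, the partner of SLIRP in keeping mitochondrial mRNA stable, was at 26.4 and 33.1 FPKM (0.31).

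Upstream of the ribosome, 12 genes of mitochondrial transcription and RNA processing had a median of 0.18, with 1 higher by more than 0.5 (8.33%, against 9.9% of all genes) and 0 lower. The median was 0.31 when a mean of 5 FPKM was required. It was 0.37 after scaling to a sum of 1000000, which put all genes at 0.24. PNPT1, a nuclease of mitochondrial RNA, was at 8.01 FPKM in shNC and 13.3 FPKM in shKIAA1429 (0.67), and TRMT10C, a subunit of mitochondrial RNase P, at 8.62 and 12.3 FPKM (0.46). The lowest were KIAA0391, the nuclease subunit of the same enzyme (-0.38), and the RNA polymerase POLRMT (-0.18). TFAM, which packs mitochondrial DNA and starts its transcription, was at 11.5 and 15.4 FPKM (0.40). Of 7 regulators of nuclear genes for mitochondria that passed the filter, 2 were lower by more than 0.5 (28.6%, against 6.12% of all genes) and 0 higher, with a median of -0.095. That median was -0.47 when a mean of 5 FPKM was required. Scaling to a sum of 1000000 put it at 0.045, above 0 but below the 0.24 of all genes. The 2 lower ones were MYC, at 28.5 and 4.53 FPKM (-2.42), and YY1, at 12.2 and 7.97 FPKM (-0.55). The paper picked MYC as a possible target partly from its RNA-seq results, so the low value of MYC was known beforehand. The share of 28.6% is therefore no measure of an excess. GABPB1 (0.29) and GABPA (0.093) were the highest. Members with the YY1 letters in their promoter window had a median log2 change of -0.015 and those without -0.045. For the ETS letters these medians were -0.013 and -0.038, and for the E-box 0.053, from 7 members, and -0.038.

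In this RNA purified on oligo(dT), most of the mRNAs that the mitochondrial ribosome translates were lower with shKIAA1429. Whether their capture on oligo(dT) differed between the libraries was not tested and cannot be told apart from lower mRNA. Of the 13 protein genes of mitochondrial DNA, 12 were below 0 (92.3%, against 42.7% of all genes), with a median log2 change of -0.45. Of the 13, 5 were lower by more than 0.5 (38.5%, against 6.12% of all genes). Among these 5, MT-ATP8 overlaps MT-ATP6, and MT-ND4 overlaps MT-ND4L, which was barely past the limit at -0.5007. Reads of such pairs can be shared, so the share of 38.5% does not stand for 5 separate values. After scaling both libraries to a common sum, the median of the 13 was -0.27, with 0.24 for all genes. The 13 genes held 42.2% of the listed FPKM in shNC and 34.6% with shKIAA1429. MT-CO2, a subunit of cytochrome oxidase, was at 17005 and 11333 FPKM (-0.59), and MT-ATP8 was the lowest at -0.65, although it overlaps MT-ATP6. MT-ND6, the protein gene of the light strand, was at 468 FPKM in shNC and 470.4 FPKM in shKIAA1429 (0.0075), and MT-CO1 followed at -0.27. The sum of these 13 genes with shKIAA1429 was 72.2% of that with shNC, and the sum of the members was 96.9%. Ribosomal proteins of the cytosol had a narrower middle than the members, with quartiles of -0.25 and -0.07. Of 82 such genes 73 were below 0 (89.0%, against 42.7% of all genes) and 77 were below the median of all genes, with a median of -0.16. Lower by more than 0.5 were 4 (4.88%, near the 6.12% of all genes), and 0 were higher. Whether these shifts are linked to each other was not tested.

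**Figure D4:**
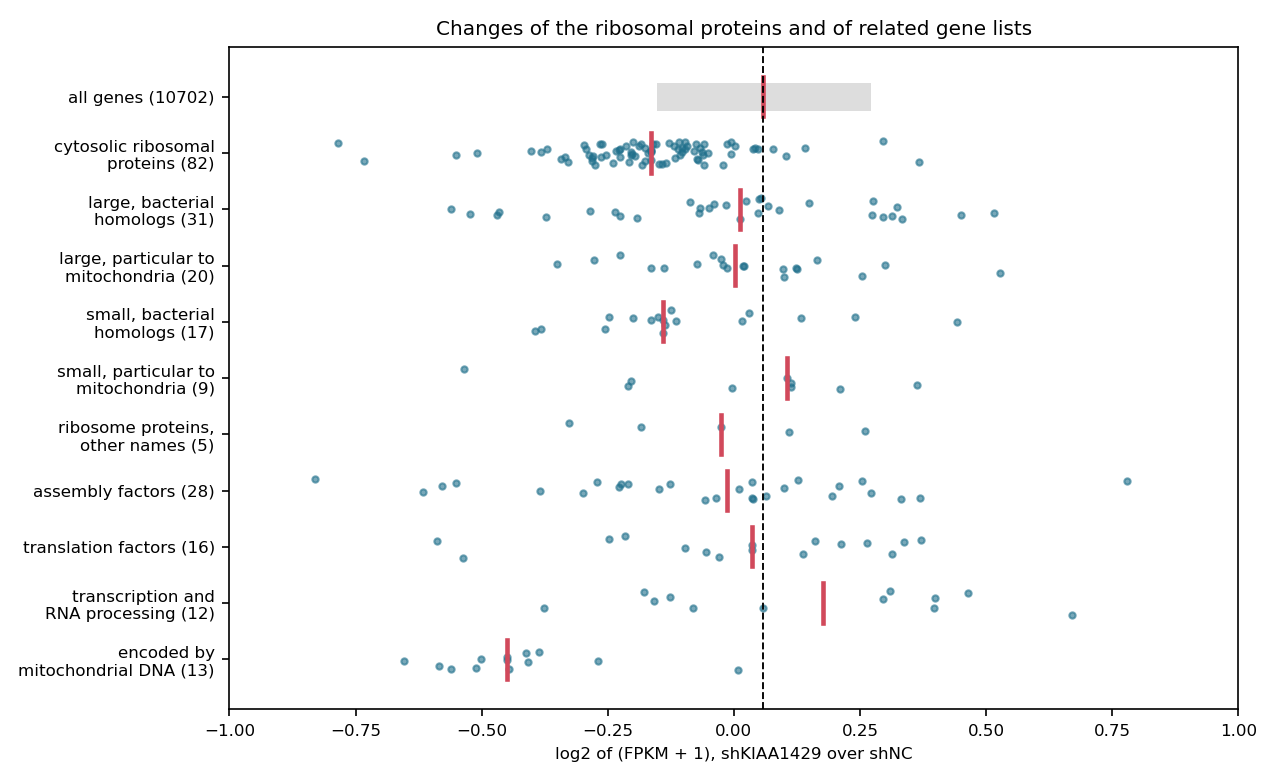
Log2 of (FPKM + 1) with shKIAA1429 over shNC (horizontal axis) for the genes of each list, with the members split by subunit and origin (points, number of genes in parentheses), with list medians as red bars, the median of all genes dashed and, for all genes, the range between the quartiles as a grey box. The members scatter on both sides of the dashed line, while all 13 genes of mitochondrial DNA and 77 of the 82 cytosolic ribosomal protein genes lie below it.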

How the data were processed

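Poly(A) RNA of 2 ACHN libraries, shKIAA1429 and shNC, was sequenced, with dUTP in the second strand, and the groups were taken from the sample labels. The authors deposited FPKM values per gene. The submitters' processing notes name cutadapt 1.9, HISAT2 2.0.4, StringTie 1.3.4d, DESeq2 and edgeR. The genome build is not given in the sources used here, and the gene identifiers carry the suffix of GENCODE's GRCh37 mapping, whose coordinates were used. FPKM keeps no read count, so depth and counting error are unknown, and reads of overlapping genes and near-copies depend on how the authors' software divided them.

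The change of a gene was the log2 ratio of its values after adding a pseudocount of 1, shKIAA1429 over shNC, and symbols averaging 1 FPKM or more entered. Of 7 symbols on more than 1 row, none a member, the row with the higher mean was used. With 1 library per group no test was run. Members and lists were chosen with earlier results of these data known. Members named are those past 0.5, the 10 highest and 10 lowest changes, the 5 highest and 5 lowest levels, the MRPS18 paralogs, the stalk, MRPS36 and members that overlap a listed gene on the same strand, and from other lists the 2 highest and 2 lowest changes. Others, named as examples, neighbours or partners, were chosen after their values were seen. The GC content and length of the longest coding transcript came from GENCODE 29, and their trend was removed by medians of 10 by 10 bins, a step added after seeing the data. Promoter windows came from RefSeq on GRCh38.p14, matched by symbol or older symbol for 81.3% of the listed symbols, with the first window used where a gene had several. Protein sequences were not analysed here. Alternatives were another pseudocount, centring, rescaling, other filters and limits, leaving out overlapping members and summing rows of a symbol. The log2 change and the limit of 0.5 were tried on simulated data, and the other steps were not. Python 3.11.15, NumPy 2.4.6, pandas 2.3.3 and matplotlib 3.10.9 were used.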

Additional observations from a re-analysis of the deposited data

How the results depend on the processing

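The counts of members past 0.5, 2 higher and 3 lower, depended on the setting. A pseudocount of 0.1 gave 3 higher and 5 lower, centring on the median of all genes gave 0 and 5, scaling to a common sum of 1000000 gave 9 and 0, and the same without the genes of mitochondrial DNA gave 3 and 5. A limit of 0.3 gave 8 and 10 by construction, and a limit of 1 gave 0 and 0. The background moved too, to 23.9% higher and 4.59% lower of all genes after rescaling and to 7.64% and 7.69% after centring. It was 13.9% and 8.73% with a pseudocount of 0.1, and 13.7% and 8.39% when scaled without the genes of mitochondrial DNA. For a limit of 0.3 it was 22.2% and 13.9%, and for a limit of 1 it was 1.61% and 0.897%. No filter, a mean FPKM of at least 5, summed rows and leaving out overlapping members gave 2 and 3 again, and taking out the trend with GC content and length, added after seeing the data, gave 2 and 4 but with other members, since MRPL13, MRPS26 and MRPL34 were then within 0.5 while MRPS6 was above it and MRPL1, MRPS14 and MRPS36 below. Scaling to that sum moved the medians by more than 0.1, to 0.16 for all members, 0.19 for the large subunit and 0.045 for the small subunit, with 0.24 for all genes. The other alternatives moved these 3 medians by at most 0.1. Under every alternative that kept all 78 members and was compared with all genes, 51 of 78 were below the median of all genes. Centring and other limits cannot change this count, and rescaling shifts all genes nearly alike, so its constancy says little. With the trend of GC content and length removed the count was not taken, and the members' median was then -0.0042. No member past 0.5 changed its direction under these alternatives. MRPL16 was at -0.43, MRPS26 at -0.38 and MRPL34 at -0.41 after rescaling. Among the other lists, the median of the regulators ran from -0.47 to 0.045, that of transcription and RNA processing from 0.12 to 0.37 and that of mitochondrial DNA from -0.51 to -0.27 over the alternatives. No paired analysis was possible because each group holds 1 library.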
